A study of Lepidobatrachus laevis with 14 samples.

Results

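Liver-made plasma proteins were followed as a group of 50 genes in the developing stomach of Lepidobatrachus laevis (Budgett's frog). The genes were listed by name for what they encode, and the list was drawn up with earlier results of these data known. They were 12 of the clotting system, 10 of complement, 14 carriers and apolipoproteins, 10 inhibitors of proteases and related proteins, and 4 others. Of the 50, 42 had a row among the 13574 reviewed protein names (26940 rows in all), and where a name had several rows the reviewed row of highest mean count stood for it. The 8 without a row were APOC1, CP (ceruloplasmin), AFM, AFP, ALB (albumin), ITIH1, ITIH4 and HRG, and they were not analysed here. The rows carry names of human protein entries, so that THRB stands for prothrombin (F2), and the human gene symbols are used below for the frog transcripts.

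RNA was sequenced from left and right stomach of animals labelled wild-caught and wild-type at Gosner stage 19, an embryonic stage. Each side had 5 libraries of a single stomach (replicates 1, 2, 3, 5 and 6) and 2 pools of 5 stomachs (replicates 7 and 8), and the comparison of left with right asked which transcripts differ between the sides. Pools and single stomachs went to different facilities for library construction, which means that an effect of pooling and one of facility cannot be told apart. A left and a right single-stomach library share a title stem, called a pair here, but no label says that a pair came from 1 stomach, and the p-values measure the spread between libraries.

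In vertebrates the hepatocytes of the liver secrete most proteins of the blood plasma. They include the clotting factors, which act as a cascade of proteases ending in a fibrin clot, the complement proteins, which mark and lyse microbes, the carriers of lipid, hormones and metals, and the inhibitors that keep these proteases in check. The liver buds from foregut endoderm beside the future stomach, and several of these genes are also read in other tissues.

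Total counts were 12174670 to 57498697 per left library and 14836223 to 62707669 per right library, and the 4 pools were the shallowest libraries, at up to 20022774 counts. Levels are given as CPM, the count scaled to the library's total, and depend on transcript length, so they are compared between libraries and not between genes. The defining stomach gene BARX1, a transcription factor of stomach mesenchyme, was present in every library, at 19.9 to 180 CPM on the left and 26.5 to 124 CPM on the right. The 42 genes held 0.443% to 1.19% of all counts in left single-stomach libraries and 0.64% to 1.94% in right ones, and 4.4% and 4.56% in left pools against 3.97% and 4.51% in right pools. A fall in such bulk values can mean fewer cells of a type or less RNA per cell, which cannot be told apart.

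Among single stomachs the plasma protein transcripts were lower on the left in every pair when summed. The sum was 11023, 6167, 4191, 7767 and 7542 CPM in left replicates 1, 2, 3, 5 and 6, against 19531, 9706, 5785, 10922 and 8413 CPM in right replicates 1, 2, 3, 5 and 6. The sides overlapped, and libraries of one pair tended to be high or low together. Of 41 genes that passed the filter on low counts, 40 had a negative log2 fold (left minus right) and A2M alone a positive one, against 49.4% of all 22452 rows tested. Their median log2 fold was -0.42 and that of all rows 0.00. No gene of the group and no row was called in edgeR's quasi-likelihood test without pairs (0% called, Benjamini-Hochberg adjusted p under 0.05), with 175 rows (0.779%) and 1 of the 41 genes, PROC, at an unadjusted p under 0.05, and DESeq2 without pairs called 0 as well, with 254 rows (1.13%) and 3 of the 41 genes at an unadjusted p under 0.05. Replicate 1 of the right side had the highest sum, and without it the median log2 fold of the 41 genes was -0.20 in edgeR's fit without pairs. Folds without single libraries are given here only for the fibrinogen chains and the genes of highest mean CPM in each class. Of these, APOB (0.38), APOA1 (0.28), C3 (0.05), TTR (0.05) and F2 (0.03) turned positive without right replicate 1. Other genes of the group may have turned as well.

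With the pair as a block the 2 tools gave different calls. DESeq2 called 12 of the 38 genes that received an adjusted p, all lower on the left, where 0.36% of 19160 rows were called lower, 0.188% higher and 0.548% in either direction. They included FGA, FGB, FGG, PLG and PROC of the clotting system, TTR, GC and APOM of the carriers, SERPINA1 and FETUB of the inhibitors, and VTN. edgeR with the same block called none (0%), but 27 of the 41 genes had an unadjusted p under 0.05 and all 27 were lower on the left, against 3.3% of its rows lower and 5.72% in either direction. When each pair was left out in turn DESeq2 called 4 to 13 of the genes and edgeR 0. The lowest number, 4, came without replicate 1, and then FGA, FGB, FGG and APOM remained. These were called in 5 of 5 such fits, SERPINA1, PLG, GC and VTN in 2, and FETUB, PROC and TTR in 1.

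**Figure D1:**
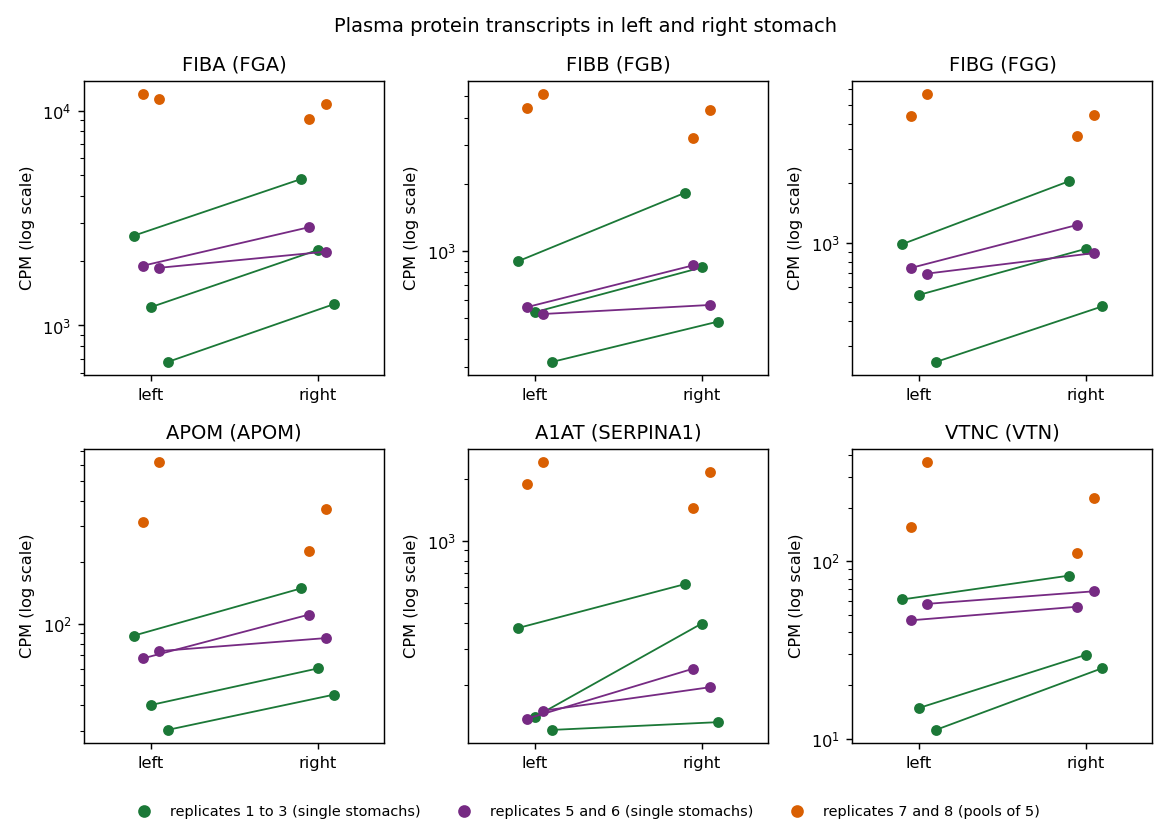
Level of FGA, FGB, FGG, APOM, SERPINA1 and VTN in each library (vertical axis, CPM on a log scale), left beside right. Lines join the left and right library of a replicate number and pools are in orange. Panels carry the row names (FIBA, FIBB, FIBG, APOM, A1AT and VTNC); every single-stomach line of these 6 genes runs upward to the right side, and all 4 pools lie above all 10 single-stomach libraries.

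The 3 chains of fibrinogen, the precursor of the fibrin clot, were among the genes that DESeq2 called whichever pair was left out. FGA, the alpha chain, stood at 2621, 1217, 676, 1895 and 1855 CPM in left replicates 1, 2, 3, 5 and 6, against 4798, 2244, 1258, 2867 and 2205 CPM in right replicates 1, 2, 3, 5 and 6. The left library was the lower one in 5 of 5 pairs, at 0.537 to 0.841 of the right level, while the 2 sides overlapped across pairs. The fold in the DESeq2 fit with pairs was -0.71 ± 0.11 on the log2 scale (SE, 5 pairs, adjusted p = 1.19e-06). In edgeR's fit with pairs it was -0.70 ± 0.10, with an unadjusted p of 9.61e-05 and an adjusted p of 0.349.

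FGB, the beta chain, stood at 899, 529, 315, 557 and 519 CPM in left replicates 1, 2, 3, 5 and 6, against 1829, 842, 480, 861 and 570 CPM in right replicates 1, 2, 3, 5 and 6. FGG, the gamma chain, stood at 986, 545, 249, 746 and 699 CPM in left replicates 1, 2, 3, 5 and 6, against 2055, 933, 477, 1234 and 888 CPM in right replicates 1, 2, 3, 5 and 6. Both were lower on the left in 5 of 5 pairs, by -0.62 ± 0.12 (adjusted p = 0.000264) and -0.78 ± 0.11 (adjusted p = 1.62e-08) on the log2 scale in the DESeq2 fit with pairs. For each chain the smallest difference was in the pair of replicate 6, with left levels at 0.911 of the right for FGB and 0.787 for FGG. The ratio of FGB to FGG also varied, from 0.743 to 1.27 in left and from 0.642 to 1.01 in right single-stomach libraries. It was higher in replicates 1 to 3, at 0.912 to 1.27 on the left and 0.89 to 1.01 on the right. In replicates 5 and 6 it was 0.743 and 0.746 on the left and 0.642 and 0.698 on the right. The ratio was 0.899 and 0.998 in left pools against 0.928 and 0.971 in right pools.

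All 12 clotting genes had a negative fold in single stomachs, with a median of -0.39 in the DESeq2 fit with pairs. PLG, plasminogen, whose active form dissolves fibrin, was lower on the left in 5 of 5 pairs at 0.638 to 0.899 of the right level (-0.37 ± 0.10, adjusted p = 0.0485). PROC, protein C, an anticoagulant protease, was lower in 5 of 5 pairs at 0.386 to 0.918 of the right level (-0.61 ± 0.17, adjusted p = 0.0487). Prothrombin (F2), the zymogen of the protease that cuts fibrinogen, had -0.24 ± 0.10 (adjusted p = 0.689), and KNG1, kininogen, the source of bradykinin, had -0.35 ± 0.11 (adjusted p = 0.183). F9 and F10, proteases that act before thrombin, had -0.36 ± 0.13 and -0.40 ± 0.12 and were also lower on the left in 5 of 5 pairs (adjusted p = 0.354 and 0.0767). PROS1, protein S, the cofactor of protein C, stood at 44.8, 47.5, 44.9, 52.1 and 47.7 CPM in left replicates 1, 2, 3, 5 and 6, against 52.2, 46.8, 55.1, 61.6 and 44.7 CPM in right replicates 1, 2, 3, 5 and 6, and was lower on the left in 3 of 5 pairs (-0.14 ± 0.11, adjusted p = 1). F7, which starts clotting together with tissue factor, had -0.21 ± 0.13 (adjusted p = 1).

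The 10 complement genes had a median log2 fold of -0.35 in the same fit. C3, on which the complement pathways converge, had -0.27 ± 0.11 (adjusted p = 0.54), and C9, which forms the lytic pore, -0.41 ± 0.11 (adjusted p = 0.0574). CFB, the protease subunit of the alternative C3 convertase, ran from 0.403 of the right level in replicate 2 to 1.62 in replicate 3 (-0.51 ± 0.35, adjusted p = 1). CFI, the protease that inactivates C3b, and C8A, a chain of the membrane attack complex, were lower on the left in 5 of 5 pairs without passing the test (adjusted p = 0.195 and 0.153). C5, C6 and C7, which assemble that complex, had folds of -0.08 to -0.15, and C8B, another chain of it, -0.36 ± 0.15 (adjusted p = 0.604).

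Of the 14 carriers 9 had a row and 8 passed the filter. HPX, hemopexin, the heme carrier, did not, with 0 to 9 counts in any library. APOM, the apolipoprotein that carries sphingosine 1-phosphate, stood at 87.6, 40, 30.2, 67.6 and 73.5 CPM in left replicates 1, 2, 3, 5 and 6, against 149, 60.4, 45, 111 and 85.1 CPM in right replicates 1, 2, 3, 5 and 6. It was lower on the left in 5 of 5 pairs, by -0.58 ± 0.11 (adjusted p = 0.000211). GC, the vitamin D binding protein, was lower in 5 of 5 pairs at 0.436 to 0.898 of the right level (-0.69 ± 0.16, adjusted p = 0.00984). TTR, transthyretin, a thyroid hormone carrier, was lower in 4 of 5 pairs, with 28.7 CPM in left and 25.7 CPM in right replicate 2 as the exception (-0.65 ± 0.17, adjusted p = 0.0282).

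The lipoprotein genes were less regular. APOA1, the main protein of high density lipoprotein, stood at 510, 327, 96.8, 105 and 133 CPM in left replicates 1, 2, 3, 5 and 6, against 1103, 237, 179, 212 and 145 CPM in right replicates 1, 2, 3, 5 and 6. It was lower on the left in 4 of 5 pairs (-0.55 ± 0.30, adjusted p = 0.991), and the right library of replicate 1 stood far above the other 4. APOB, the structural protein of very low and low density lipoprotein, was lower in 4 of 5 pairs as well (-0.57 ± 0.32, adjusted p = 1), and APOE, a ligand of lipoprotein receptors, in 4 of 5 (-0.43 ± 0.14, adjusted p = 0.173). In edgeR's fit without pairs, APOA1 and APOB had log2 folds of -0.67 and -0.53 with all 10 libraries and of 0.28 and 0.38 without the right library of replicate 1. TF, transferrin, the iron carrier, had only 10 to 63 counts in left and 17 to 98 counts in right single-stomach libraries, and AHSG, fetuin-A, a mineral binding protein, stood at 0.945 to 2.29 CPM on the left and 0.88 to 3.11 CPM on the right.

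Among the inhibitors SERPINA1, alpha-1-antitrypsin, the inhibitor of neutrophil elastase, stood at 378, 140, 121, 137 and 150 CPM in left replicates 1, 2, 3, 5 and 6, against 617, 397, 132, 240 and 195 CPM in right replicates 1, 2, 3, 5 and 6. It was lower on the left in 5 of 5 pairs, by -0.71 ± 0.15 (adjusted p = 0.00273). FETUB, fetuin-B, an inhibitor of astacin-type proteases, was lower in 5 of 5 pairs at 0.557 to 0.959 of the right level (-0.43 ± 0.11, adjusted p = 0.0398). SERPINC1, antithrombin, had -0.42 ± 0.15 and SERPIND1, heparin cofactor II, -0.31 ± 0.12 (adjusted p = 0.329 and 0.391). A2M, alpha-2-macroglobulin, a broad protease trap, was the only tested gene of the group with a positive fold. It was 152, 105, 106, 134 and 84.1 CPM in left replicates 1, 2, 3, 5 and 6, against 175, 110, 83, 119 and 78.9 CPM in right replicates 1, 2, 3, 5 and 6. Its left level was higher in 3 of 5 pairs, and its fold of 0.06 ± 0.11 did not pass the test (adjusted p = 1). F5 and APOH, with negative folds, were likewise lower on the left in only 2 of 5 pairs. ITIH3, an inter-alpha-trypsin inhibitor heavy chain, did not exceed 0.727 CPM in left and 1.04 CPM in right single-stomach libraries.

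VTN, vitronectin, an adhesion protein that also binds the complement pore, was 61, 14.9, 11.2, 46.5 and 57.6 CPM in left replicates 1, 2, 3, 5 and 6, against 83.1, 29.7, 25, 55.5 and 67.8 CPM in right replicates 1, 2, 3, 5 and 6. It was lower on the left in 5 of 5 pairs (-0.61 ± 0.14, adjusted p = 0.0104). AGT, angiotensinogen, the precursor of angiotensin, was also lower in 5 of 5 pairs but did not pass the test (-0.65 ± 0.26, adjusted p = 0.482). APOH, beta-2-glycoprotein I, a phospholipid binding protein, was at 0.398 to 1.18 CPM on the left and 0.267 to 2.24 CPM on the right, and was lower on the left in 2 of 5 pairs.

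Counted over pairs, 19 of the 41 genes were lower on the left in 5 of 5 pairs, where 3.69% of all rows were. None was higher in 5 of 5, where 3.56% of all rows were. The pairs differed in size. The median log2 ratio over the 41 genes was -0.68, -0.54, -0.22, -0.32 and -0.16 in the pairs of replicates 1, 2, 3, 5 and 6, with 40, 35, 31, 34 and 33 genes lower on the left. For all rows, with 0.5 CPM added to each level, the median lay between -0.03 and 0.02. In the same order of pairs, 55.1%, 48.6%, 46.1%, 50.2% and 49.6% of all rows were lower on the left. No such amount was added for the 41 genes.

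**Figure D2:**
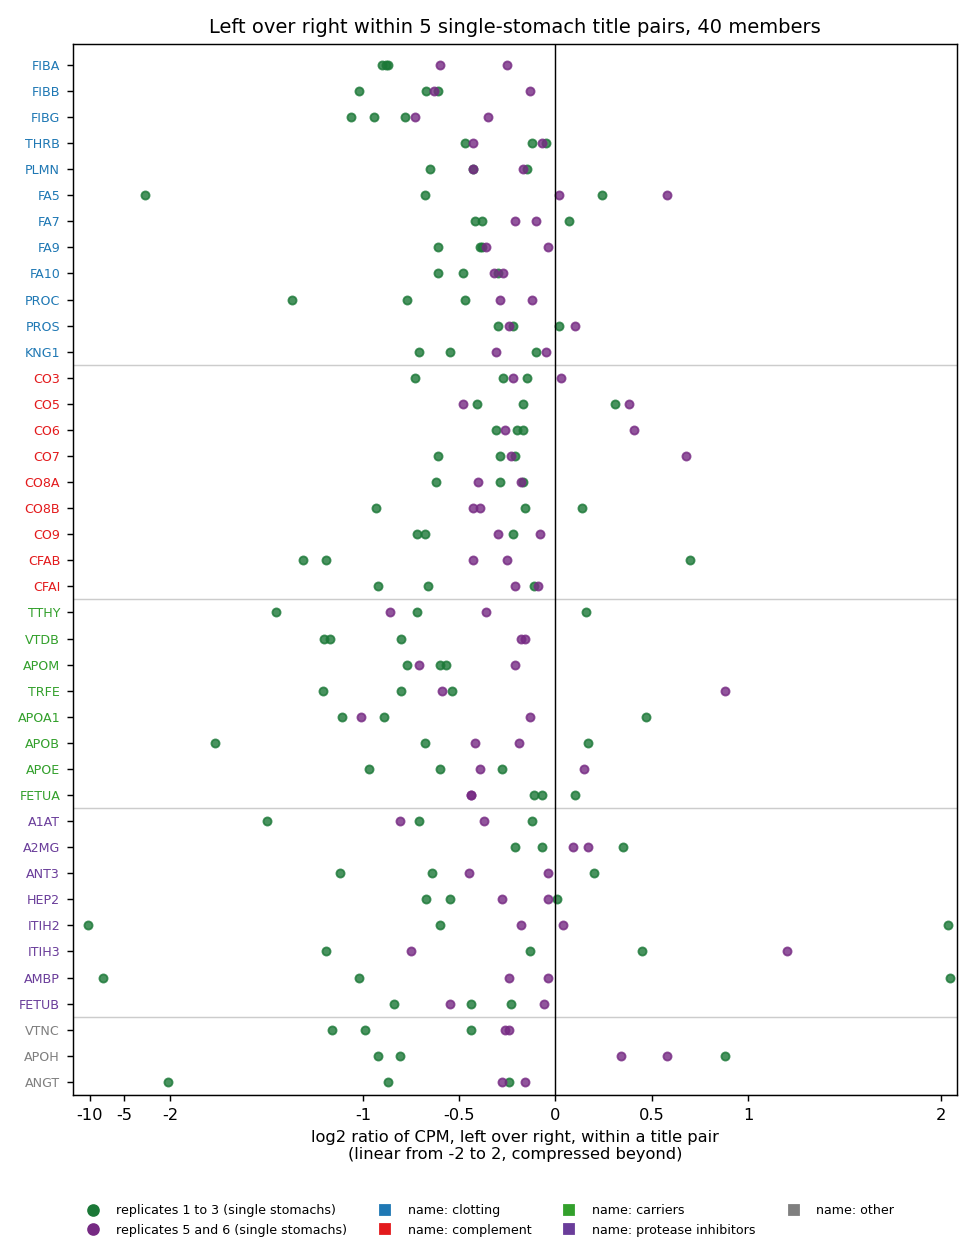
Log2 ratio of left to right level for 40 of the 41 genes (down the page, by class) in each of the 5 single-stomach pairs (horizontal axis, log2 left over right, linear between -2 and 2 and compressed beyond; points coloured by set, replicates 1 to 3 or 5 and 6). Points left of 0 are lower on the left; all 5 points lie there for FGA, FGB and FGG, and F5, ITIH2 and AMBP spread far wider than the others.

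The order of the fold sizes did not separate the classes. The class medians in the DESeq2 fit with pairs were -0.39 for clotting, -0.35 for complement, -0.56 for carriers, -0.42 for inhibitors and -0.61 for the 3 tested others. The ranges overlapped: -0.78 to -0.14 for clotting, -0.51 to -0.08 for complement, -0.69 to -0.22 for carriers and -0.71 to 0.06 for inhibitors.

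A pattern of its own was shared by 3 genes of different roles. ITIH2, another inter-alpha-trypsin inhibitor heavy chain, stood at 4.46, 0.237, 12.8, 10.4 and 20.3 CPM in left replicates 1, 2, 3, 5 and 6, against 6.78, 286, 2.54, 11.8 and 19.8 CPM in right replicates 1, 2, 3, 5 and 6. AMBP, the precursor of alpha-1-microglobulin and bikunin, the light chain that inter-alpha-trypsin inhibitor heavy chains bind, stood at 11.8, 1.63, 41.7, 1.36 and 8.57 CPM in left replicates 1, 2, 3, 5 and 6, against 24, 342, 7.75, 1.6 and 8.82 CPM in right replicates 1, 2, 3, 5 and 6. F5, factor V, the cofactor that speeds thrombin formation, reached 59.5 CPM in right replicate 2, against 2.07 to 11.3 CPM in the left single-stomach libraries and 1.39 to 10.6 CPM in the other right ones. In edgeR's fit without pairs their log2 folds, left minus right, were -2.76 ± 1.32, -2.58 ± 1.42 and -1.53 ± 0.87 (adjusted p = 1 for each), and with pairs -0.57 ± 1.22, -0.71 ± 1.19 and -0.61 ± 0.52 for ITIH2, AMBP and F5. For all 3, right replicate 2 was the highest single-stomach library, and left pool 8 was the lowest of the pools.

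**Figure D3:**
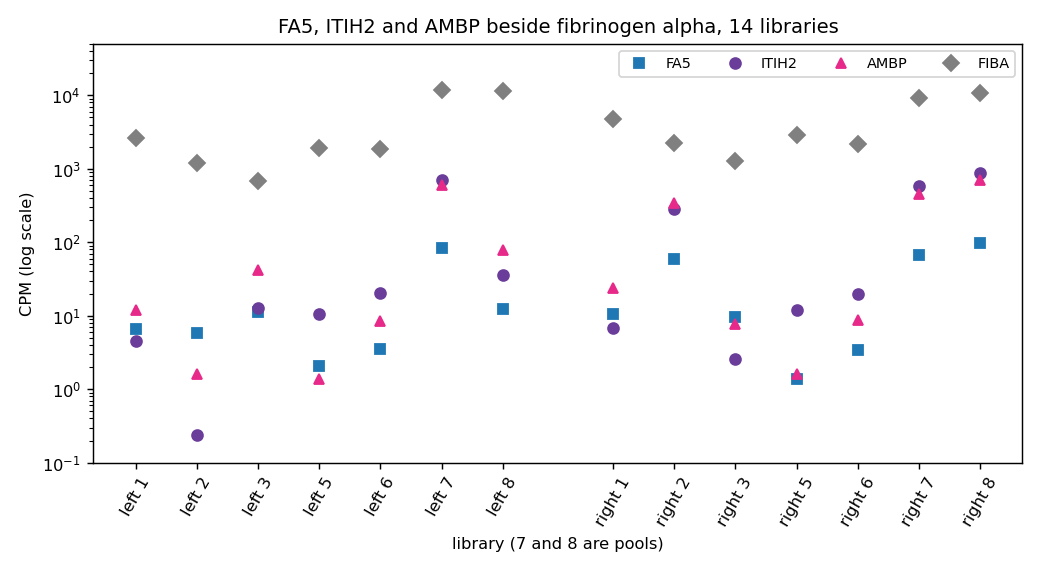
Level of F5, ITIH2, AMBP and, for contrast, FGA in each of the 14 libraries (vertical axis, CPM on a log scale). For F5, ITIH2 and AMBP right replicate 2 reaches toward the pools (59.5, 286 and 342 CPM) and left pool 8 stays low (12.3, 36 and 77.3 CPM), while FGA in left pool 8 is at 11331 CPM.

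By a search made after these values were seen, over 7233 rows, the 10 rows nearest to ITIH2 across 14 libraries, at root mean square differences of 1.28 to 2.01 on the log2 scale, were FABP6, AMBP, T4S4, RELN, LEG2, MYL7 (row name MLRA), F5, MYH6, AQP9 and GABT, of which 2 belong to the group. MYL7 and MYH6 encode atrial light chain and heavy chain of cardiac myosin. MYH6 was at 1.43, 1.39, 21.8, 2.26 and 6.18 CPM in left replicates 1, 2, 3, 5 and 6, against 0.587, 68.4, 55.1, 2.49 and 28.3 CPM in right replicates 1, 2, 3, 5 and 6, so that right replicates 3 and 6 were high for MYH6 as well. The heart list of 9 symbols, 8 with a row, summed to 40.3 to 83.5 CPM in left and 50.9 to 205 CPM in right single-stomach libraries. The sum was lower on the left in 5 of 5 pairs. DESeq2 with pairs gave 8 of 8 negative folds, where 52.3% of all rows were negative. It called 1, MYL7, lower (-3.60 ± 0.94, adjusted p = 0.0316), where 0.36% of rows were. MYL7 was low in most libraries, at 0.0326, 0.118, 3.87, 0.0822 and 0.104 CPM in left replicates 1, 2, 3, 5 and 6. In right replicates 1, 2, 3, 5 and 6 it was 0.163, 20.5, 14.2, 0.334 and 2.96 CPM. The part of neighbouring tissue in the levels of these 3 genes was not tested.

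A second ranking took the summed fibrinogen chains as its template. Of 7230 rows with a mean of at least 10 CPM, APOM had the 5 pair ratios nearest to theirs, with a root mean square difference of 0.18 on the log2 scale over 5 pairs. Next, from 0.215 to 0.286, came AKR1D1, an enzyme of bile acid synthesis, PKDCC, a secreted kinase, CPB2, a carboxypeptidase that slows fibrin breakdown, PDX1, a transcription factor of pancreas and duodenum, RSPO1, a Wnt agonist, SERPINF2, the inhibitor of plasmin, KMO, an enzyme of tryptophan breakdown, PKHG5 and AADAC (row name AAAD), a liver esterase. GC was at rank 11 and BORG2 at rank 12. Of the 34 genes of the group that could be ranked, 10 were among the nearest 50 rows and 14 among the nearest 100.

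Other liver genes were set beside the group. Of 31 further plasma protein symbols 24 had a row and 18 were tested. In the DESeq2 fit with pairs all 18 were negative with a median of -0.48, where 52.3% of all rows were negative. Of the 14 with an adjusted p, 4 were called lower on the left and 0 higher, where 0.36% and 0.188% of rows were. The called ones were SERPINF2 (-0.51 ± 0.10, adjusted p = 0.000529), CPB2 (-0.52 ± 0.10, adjusted p = 0.000741), PROZ, a vitamin K dependent plasma protein (-0.60 ± 0.15, adjusted p = 0.0158), and RBP4, the retinol carrier (-0.49 ± 0.12, adjusted p = 0.0113). Of 12 liver enzymes and 13 liver transcription factors tested, 9 and 11 were negative, with medians of -0.18 and -0.27, and 0 were called by DESeq2 or by edgeR with pairs. At an unadjusted p under 0.05 DESeq2 had 3 of the enzymes lower and 0 higher, and 5 of the factors lower and 2 higher. It had 3.02% of all rows lower and 1.9% higher at that level. edgeR had 2 and 0 enzymes and 4 and 1 factors, against 3.3% of all rows lower and 2.42% higher. HNF4A, a transcription factor of hepatocytes and gut endoderm, stood at 150, 71.5, 57.2, 186 and 242 CPM in left replicates 1, 2, 3, 5 and 6, against 150, 87.3, 77.8, 245 and 259 CPM in right replicates 1, 2, 3, 5 and 6 (-0.25 ± 0.10, adjusted p = 0.505).

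Markers of other tissues moved in part with the group. DESeq2 with pairs called 0.36% of all rows lower and 0.188% higher, and 52.3% had negative folds. PDX1 was lower on the left in the DESeq2 fit with pairs (-0.61 ± 0.14, adjusted p = 0.00634), the only one called of 6 pancreas genes with an adjusted p, whose list summed to 44.1 to 147 CPM in left and 36.8 to 149 CPM in right single-stomach libraries. Of 11 stomach and foregut genes, GATA4 was called lower on the left (-0.45 ± 0.11, adjusted p = 0.011) and TFF1, a mucosal peptide of the stomach, higher (1.53 ± 0.41, adjusted p = 0.0387), and 8 of 11 folds were positive. That list summed to 512 to 1081 CPM in left and 346 to 1026 CPM in right single-stomach libraries. Intestine genes, with CDX2 at 11.6 to 46.1 CPM on the left and 21.1 to 55.3 CPM on the right, summed to 16.2 to 54 CPM in left and 27.6 to 62.4 CPM in right single-stomach libraries, and erythroid genes to 1044 to 22476 CPM in left and 4266 to 27411 CPM in right ones. Of 6 intestine and 9 erythroid genes tested 4 and 8 were negative and 0 were called by DESeq2 or edgeR with pairs. By either tool 1 intestine and 0 erythroid genes had an unadjusted p under 0.05, against 4.92% of all rows in DESeq2 and 5.72% in edgeR. No listed gene with a row was at 0 in every library, and the part of these tissues in the result was not tested.

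The single-stomach libraries also form 2 sets, replicates 1 to 3 and replicates 5 and 6, a division known from earlier results on these data and not named in the labels. C6, C7, CFB and F5 were higher in all 6 libraries of replicates 1 to 3 than in all 4 of replicates 5 and 6, where 18.3% of rows were. C7 stood at 68.8 to 78.6 CPM on the left and 84.2 to 107 CPM on the right in replicates 1 to 3, against 9.92 and 13.8 CPM on the left and 8.67 and 11.7 CPM on the right in replicates 5 and 6. AGT alone was lower in all 6, where 18.8% of rows were. These counts lie below the share among all rows. The left-right direction was negative in both sets: the pair medians were -0.68, -0.54 and -0.22 in replicates 1 to 3 and -0.32 and -0.16 in replicates 5 and 6.

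The pools carried far more plasma protein transcript than the single stomachs. The group summed to 48104 and 56735 CPM in left pools and 38936 and 48302 CPM in right pools, against 4191 to 11023 CPM in left and 5785 to 19531 CPM in right single-stomach libraries, with no overlap. In edgeR's fit of 14 libraries with side in the model, 36 of 41 genes were higher in the pools, where 12.7% of 23271 rows were called higher, and 1 was lower, where 17.7% of rows were. In either direction 37 of 41 genes and 30.4% of rows were called. The median log2 fold of the 41 genes was 2.39 and that of all rows -0.10. All 4 pools lay above all 10 single-stomach libraries for 30 of 41 genes (6.85% of rows), and below them for 1 (11% of rows). DESeq2 gave an adjusted p to 35 of the 41 genes. It called 31 higher, where 15.4% of its rows were, and 1 lower, where 20.9% were.

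The carriers had the highest class median, a log2 fold of 3.12, with 8 of 8 called higher by edgeR. DESeq2 gave an adjusted p to 5 of the 8 and called those 5 higher. APOA1, APOB and TTR were not among them. TF stood at 48.6 and 53 CPM in left pools and 37.2 and 40.8 CPM in right pools, against 0.276 to 1.09 CPM in left and 0.367 to 1.66 CPM in right single-stomach libraries. That was 52.9-fold higher in the pools (5.73 ± 0.37 on the log2 scale, edgeR adjusted p = 5.91e-07), from 561 to 760 counts per pool against 10 to 98 counts per single-stomach library. APOA1 stood at 6114 and 12178 CPM in left pools and 5228 and 7973 CPM in right pools, against 96.8 to 510 CPM in left and 145 to 1103 CPM in right single-stomach libraries. APOA1 was 27.1-fold higher (4.76 ± 0.56, edgeR adjusted p = 4.7e-05), APOB 20.2-fold (4.34 ± 0.63, edgeR adjusted p = 0.000205) and TTR 9.95-fold (3.32 ± 0.53, edgeR adjusted p = 0.00044).

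The inhibitors had a median of 2.71 with 7 of 8 called higher, from SERPINC1 at 1.82 ± 0.18 (edgeR adjusted p = 1.7e-05) to ITIH2 at 4.48 ± 1.09 (edgeR adjusted p = 0.0066), and SERPINA1 was 8.33-fold higher (3.06 ± 0.37, edgeR adjusted p = 6.04e-05). DESeq2 called 5 of the 6 inhibitors with an adjusted p higher, and ITIH2 was not among those called. FETUB was not called (0.61 ± 0.26, edgeR adjusted p = 0.0862). The clotting genes had a median of 1.67 and 10 of 12 were called higher. FGA was 11886 and 11331 CPM in left pools and 9172 and 10776 CPM in right pools, against 676 to 2621 CPM in left and 1258 to 4798 CPM in right single-stomach libraries, 5.23-fold higher (2.39 ± 0.32, edgeR adjusted p = 0.000126). PROS1 went against the others: it was 34 and 18.6 CPM in left pools and 44.5 and 33 CPM in right pools, below the 44.7 to 61.6 CPM of the 10 single-stomach libraries (-0.63 ± 0.16, edgeR adjusted p = 0.00913). F10 did not pass the test in edgeR (0.91 ± 0.35, edgeR adjusted p = 0.0583), but DESeq2 called it higher.

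The complement genes had a median of 1.63 and 8 of 10 were called higher, CFB by 7.92-fold (2.98 ± 0.46, edgeR adjusted p = 0.000333) and C8B by 8.65-fold (3.11 ± 0.41, edgeR adjusted p = 0.000111). C6 (0.81 ± 0.41, edgeR adjusted p = 0.151) and C7 (-0.17 ± 0.66, edgeR adjusted p = 0.868) were not called. For C7 the pools, at 25.8 to 76.7 CPM, lay above the 8.67 to 13.8 CPM of replicates 5 and 6. They overlapped the 68.8 to 107 CPM of replicates 1 to 3. VTN, APOH and AGT were all higher, by 2.27 ± 0.44, 2.65 ± 0.48 and 2.70 ± 0.50 on the log2 scale (edgeR adjusted p = 0.00161, 0.000942 and 0.00109).

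**Figure D4:**
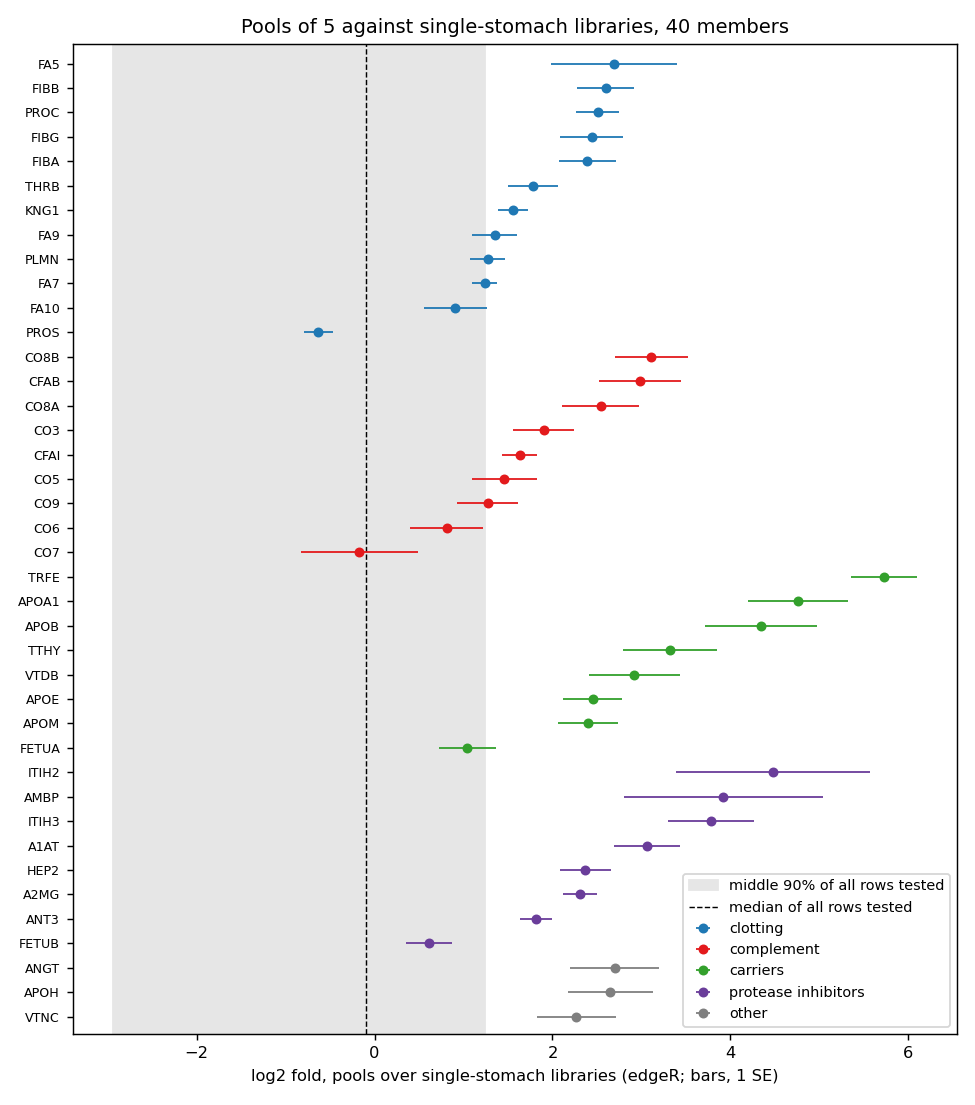
Log2 fold of pools over single-stomach libraries for 40 of the 41 genes (horizontal axis, edgeR log2 fold with bars of ± 1 SE), by class down the page. The grey band is the middle 90% of all rows (-2.94 to 1.24) and the dashed line their median (-0.10); TF lies farthest right at 5.73 and PROS1 farthest left at -0.63.

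Other liver genes were mixed in the same comparison, in which 12.7% of all rows were called higher and 17.7% lower. Of 22 further plasma protein genes tested 16 were higher in the pools and 1 lower. Of 13 liver enzymes 6 were higher in edgeR, G6PC1, FBP1 and CYP27A1 among them, and DESeq2 did not call G6PC1. The listed enzymes of the urea cycle differed. ARG1 was lower (-2.97 ± 0.38, edgeR adjusted p = 9.39e-05). OTC was higher (4.42 ± 0.94, edgeR adjusted p = 0.00292), though at most 3.77 CPM in any library, and CPS1 was not called (0.65 ± 0.70, edgeR adjusted p = 0.518). Of 13 liver transcription factors 3 were higher and 2 lower. CEBPA was higher (2.54 ± 0.24, edgeR adjusted p = 1.1e-05), FOXA2 lower (-0.98 ± 0.26, edgeR adjusted p = 0.00979), and HNF4A had -0.20 ± 0.38 (edgeR adjusted p = 0.724). Intestine genes were higher in 4 of 6, CDX2 at 1.22 ± 0.32 (edgeR adjusted p = 0.00962), heart genes in 4 of 8, erythroid genes in 1 of 9 and pancreas genes in 2 of 10. The erythroid and pancreas counts lie near the 12.7% of all rows called higher. The heart gene TNNC1 (-2.13 ± 0.69, edgeR adjusted p = 0.031) and the erythroid gene TAL1 (-1.73 ± 0.61, edgeR adjusted p = 0.0448) were lower in the pools. edgeR called 0 intestine and 0 pancreas genes lower, while DESeq2 called 1 pancreas gene lower. At an unadjusted p under 0.05 edgeR had 0 intestine genes and 1 pancreas gene lower, against 24.1% of all rows. Of 11 stomach and foregut genes TFF1 and SFRP5 were higher and ISL1 was lower. Their part in the difference of the plasma protein genes was not tested.

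In the pools the left-right direction was the other way for most of the group. Both left pools lay above both right pools for 16 of 41 genes, where 15.7% of rows did, and below them for 1, C7, where 16.3% of rows did. In a fit of the 4 pools alone 31 of 41 log2 folds were positive, against 49.6% negative among all 19989 rows, with a median of 0.25 (all rows 0.00), and edgeR called 0 (0%), with 631 rows (3.16%) and 1 of the 41 genes at an unadjusted p under 0.05. That gene was C7, at 35.3 and 25.8 CPM in left pools against 76.7 and 66.8 CPM in right pools (-1.26 ± 0.28, adjusted p = 1). FGA had 0.19 ± 0.23 and APOM 0.62 ± 0.39 in the same fit. Of 11 stomach and foregut genes 8 were negative and 3 positive there, with a median of -0.69. Of these 11, 6 were lower and 0 higher at an unadjusted p under 0.05. All 9 erythroid genes were positive (median 0.79), with 0 at that level. Left pool 8 had the lowest BARX1 level of the pools, 19.9 CPM (others 60.7 to 124). It had the highest level of the globin gene HBE1, 41898 CPM (others 10748 to 15562). Their part in the directions of the group was not tested.

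**Figure D5:**
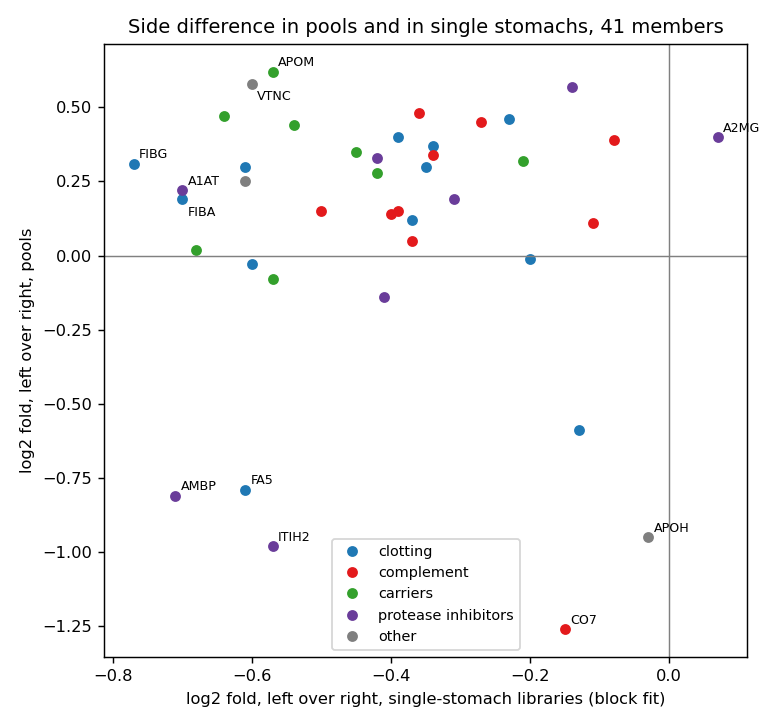
Left minus right log2 fold of each of the 41 genes in the 4 pools (vertical axis, edgeR) against that in the 10 single-stomach libraries (horizontal axis, edgeR fit with pairs), coloured by class. Of the 41 genes 40 are negative in single stomachs while 31 are positive in the pools; C7 is lowest in the pools at -1.26.

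The difference between these 2 left-right folds was tested as an interaction of side and library source. It was positive for 38 of 41 genes with a median of 0.76 (all rows 0.01, 49% of them negative), and edgeR called none of the genes and none of 24262 rows (0%), with 1911 rows (7.88%) and 1 of the 41 genes at an unadjusted p under 0.05. That gene was KNG1, for which edgeR gave 0.76 ± 0.31 (adjusted p = 0.547). DESeq2 called 141 of 23249 rows (0.606%) and 0 of the 36 genes with an adjusted p.

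Over all 14 libraries with source in the model, no gene of the group and no row was called between left and right by edgeR (0%), and 247 rows (1.06%) and 0 of the 41 genes had an unadjusted p under 0.05. The log2 fold was negative for 39 of 41 genes, against 47.1% of 23271 rows, with a median of -0.24 (all rows 0.01). DESeq2 with the same terms also called 0, with 373 rows (1.6%) and 1 of the 41 genes at an unadjusted p under 0.05. With pairs as a block, edgeR called 0 and DESeq2 13 of 24262 rows (0.0536%) and 0 of the 41 genes. At an unadjusted p under 0.05 these blocked fits had 6 of the 41 genes in edgeR (2.02% of rows) and 9 in DESeq2 (3.07% of rows), each of them lower on the left. Without right replicate 1 the median was -0.07, with left replicate 1 left out instead it was -0.34, and without the source term it was -0.02.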

How the data were processed

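RNA of 14 libraries was counted per protein-named row. The authors deposited raw read counts, whole numbers with different totals per library, and a normalized table that was not used here. The submitters' processing notes name, with no role, the trimmer Trimmomatic, the aligners Bowtie and Bowtie2 2.1.0, SAMtools 0.1.19 and the DESeq package. Per the labels' protocols RNA was purified from Trizol with DNase treatment and the kits were strand-specific. The method of counting, any use of strand, and the assembly: not given in the sources used here. Isoform rows and close paralogs may share or split reads, so their values are uncertain. The sources give no coordinates or sequences used here.

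The counts were tested with edgeR 4.0.16 (quasi-likelihood, TMM, filterByExpr) in R 4.3.3 on the whole table, with Benjamini-Hochberg adjustment over all rows and a threshold of 0.05. Left was compared with right with source as a term, and in single stomachs alone without it. DESeq2 1.42.0 was the other tool, and an adjusted p it gave as NA stayed NA. CPM used TMM-scaled totals. Both tools were tested on simulated counts with known changes, with the same dispersion for all rows and no pair or source effect. Such counts cannot show which tool is right where the blocked fits differ. The alternatives were other scaling and filters, no source term, the pair as a block, 3 library sets, pools only, rows summed by name, and each library left out. DESeq2 with the block in 14 libraries and the blocked fits without each pair were added after seeing the data.

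The genes, classes, lists and tests were chosen with earlier results of these data known. Not every gene that this rule picks is reported here. Genes described in full were the 3 fibrinogen chains, the 4 other genes of highest mean CPM per class, and those called in a fit. Outside the group, genes called in a list, defining markers (HNF4A, PDX1, BARX1, CDX2) and the 10 rows nearest to fibrinogen were named, and any other gene was chosen after its values were seen.

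Same-stem libraries deviated together from their side's mean, with correlations of 0.63, 0.65, 0.65, 0.77 and 0.85 in replicates 1, 2, 3, 5 and 6. Of the 10 libraries 8 correlated best with their own stem on the other side, and 1 library each of replicates 2 and 3 did not. They were taken as pairs on the correlations. Part of this follows the 2 sets of replicates 1 to 3 and 5 and 6. Over the 42 same-side combinations, every pair of libraries differed by more than sampling noise (chi-square per row 15.6 to 348).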

Additional observations from a re-analysis of the deposited data

Results flagged for a closer look

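In groups of 5 single-stomach libraries of a side, the gap of the most extreme library to the next was set against the group's range (Dixon's 95% value). Chance gives about 1 in 20 if groups are independent and values normal. Here the CPM were not logged and the genes share libraries, so that rate is no test of the count. Of 82 groups, 2 for each of 41 genes, 11 had such a library. Of these, 5 were the right library of replicate 1, which was high for FGB (1829 CPM, others 480 to 861), C5 (129, others 29.5 to 57.9), GC (76.2, others 9.33 to 25.7), APOA1 (1103, others 145 to 237) and APOB (682, others 48.2 to 198). The right library of replicate 2 was high for F5 (59.5 CPM, others 1.39 to 10.6), ITIH2 (286, others 2.54 to 19.8) and AMBP (342, others 1.6 to 24). On the left, replicate 1 was high for SERPINA1 (378 CPM, others 121 to 150), replicate 3 was high for AMBP (41.7, others 1.36 to 11.8), and replicate 5 was low for SERPINC1 (109, others 135 to 146).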

How the results depend on the processing

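Row names stand for genes here, and folds are log2, left minus right. Changes of direction are named only for the fibrinogen chains and the genes of highest mean CPM in each class. The lists are therefore not complete for the 41 genes. The size of the 14-library median, and the direction of some genes, depended on the source term and on single libraries. The median itself stayed negative with each library left out, at -0.36 to -0.07. Without the source term the median of the 41 genes was -0.02 (with it -0.24), and FIBB (0.02), KNG1 (0.05), THRB (0.16), CO3 (0.15), APOA1 (0.37), APOE (0.03), TTHY (0.26), A1AT (0.01), VTNC (0.24) and ANGT (0.08) were positive. With the pools only, which alone decide this value, the median was 0.25 and 31 of the 41 genes were positive. Among these were FIBA (0.19), FIBB (0.30), FIBG (0.31), PLMN (0.12), KNG1 (0.37), THRB (0.46), CO3 (0.45), CO9 (0.14), CFAB (0.15), APOA1 (0.44), APOE (0.28), TTHY (0.47), FETUB (0.33), A1AT (0.22), VTNC (0.58) and ANGT (0.25).

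Leaving out 1 library at a time in the 14-library fit gave THRB -0.23 to 0.17, CO3 -0.25 to 0.19, APOA1 -0.69 to 0.34, APOB -0.92 to 0.24, APOE -0.46 to 0.04, TTHY -0.76 to 0.19 and VTNC -0.38 to 0.03, each highest without right replicate 1. In the single-stomach fit it gave a median of -0.60 to -0.20 and A2MG -0.08 to 0.24, APOA1 -1.17 to 0.28, APOB -1.29 to 0.38, CO3 -0.55 to 0.05, THRB -0.49 to 0.03 and TTHY -1.30 to 0.05, again highest without right replicate 1, and APOH -0.52 to 0.34, highest without right replicate 2.

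With the replicate block of pairs in single stomachs the calls moved to 12 with DESeq2 (0 with edgeR), and without each pair DESeq2 gave 4, 6, 7, 7 and 13 calls for replicates 1, 2, 3, 5 and 6. In those blocked fits APOH was 0.18 (DESeq2) and 0.16 (edgeR) without replicate 1 and 0.23 (edgeR) without replicate 2, and A2MG -0.01 (DESeq2) and -0.00 (edgeR) without replicate 3. The cause of these changes was not tested. Other scaling, filters and summed rows changed no count of calls by over 1.5 times. Without scaling factors the median of all rows between pools and single stomachs moved to -0.27, and that of the 41 genes to 2.18. Low counts limit the values of TF, HPX, APOH, AHSG and ITIH3 in single stomachs, although those libraries were deeper than the pools.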
